A study of Mus musculus with 7 samples.

Results

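The nuclear genes of the mitochondrial respiratory chain were examined in bulk RNA of mouse medial prefrontal cortex (129SvEv strain, wild type, males), taken after retrieval of a remote memory. Members were chosen by a rule on symbols, with earlier results of these data known. The rule took names that begin with Nduf, Uqcr or Atp5 and the 4 genes Sdha to Sdhd. It also took the cytochrome c oxidase genes whose short symbols run from Cox5 to Cox8. Cox6a2 and symbols marked -ps were left out. This gave 88 of the 17732 genes listed, namely 46 of complex I (8 of them assembly factors), 4 of complex II, 8 of complex III, 13 of complex IV and 17 of complex V. The study compared 3 libraries labelled CFC with 4 labelled SC, names that the labels do not spell out, and both groups are of the same strain, sex, genotype and tissue. Nothing in the labels says whether the libraries come from separate animals, so the errors may be in part technical. The values are those of the authors' comparison, with a mean normalized count over the libraries and a log2 fold change with its standard error for each gene. Which group is the numerator is not stated, so a difference is given as positive or negative, and no group is called higher.

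The respiratory chain sits in the inner mitochondrial membrane and makes most of a neuron's ATP. Complex I takes electrons from NADH and complex II from succinate, complex III passes them to cytochrome c, and complex IV hands them to oxygen. Complexes I, III and IV pump protons, and complex V, the ATP synthase, lets the protons flow back and makes ATP. Each complex but the second also holds subunits encoded in mitochondrial DNA, which were not analysed here. In bulk tissue, fewer cells of a type and less RNA per cell cannot be told apart.

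No respiratory chain gene passed an adjusted p-value of 0.05 between the groups. An adjusted p-value was given for 82 of the 88 members. The other 6, Ndufs5, Ndufa4l2, Cox6b2, Cox7a1, Cox7b2 and Cox7c, had mean counts from 7.1 to 25.4 per the authors' deposited table, where no gene under a mean count of 34.9 has one. The test passed 0 of the 82, against 0.513% of all 13060 genes with one. The lowest adjusted p-value of a member was 0.461, that of Atp5mpl per the authors' deposited table, from the DESeq2 tool named in the submitters' notes. Without adjustment, 4 members, or 4.88% of the 82, had a p-value under 0.05, against 8.1% of all genes. All 4 were negative and 0 were positive, directions in which 3.54% and 4.56% of all genes passed. The next member by p-value was Atp5j2, a small membrane subunit of the ATP synthase, at -0.13 and an unadjusted p-value of 0.0965 per the authors' deposited table. With both directions pooled the members' share was below that of all genes, and in the negative direction it was above it. Both comparisons rest on the same 4 genes and are not read as a result about the members. A count of 0 at the adjusted threshold is near what so low a background share gives for 82 genes, and is not a result about the members.

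The differences of the 82 members with an adjusted p-value were also small. Their log2 fold changes ran from -0.29 for Ndufc1 to 0.21 for Ndufa12 per the authors' deposited table, with a median of -0.037 and quartiles of -0.083 and 0.0067. Over all genes the quartiles were -0.072 and 0.068. The 6 members without one, at low counts, ran more widely, from -0.47 for Cox7b2 to 0.78 for Cox6b2 per the authors' deposited table. The Wald statistic, the ratio of a log2 fold change to its error, had an SD of 0.806 over the members and 1.12 over all genes. It lay between -1 and 1 for 62 of the 82 members (75.6%) and for 66.9% of all genes. The plot of Wald statistics shows the members in a narrower heap than all genes, shifted to the left, with a mean of -0.421.

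**Figure D1:**
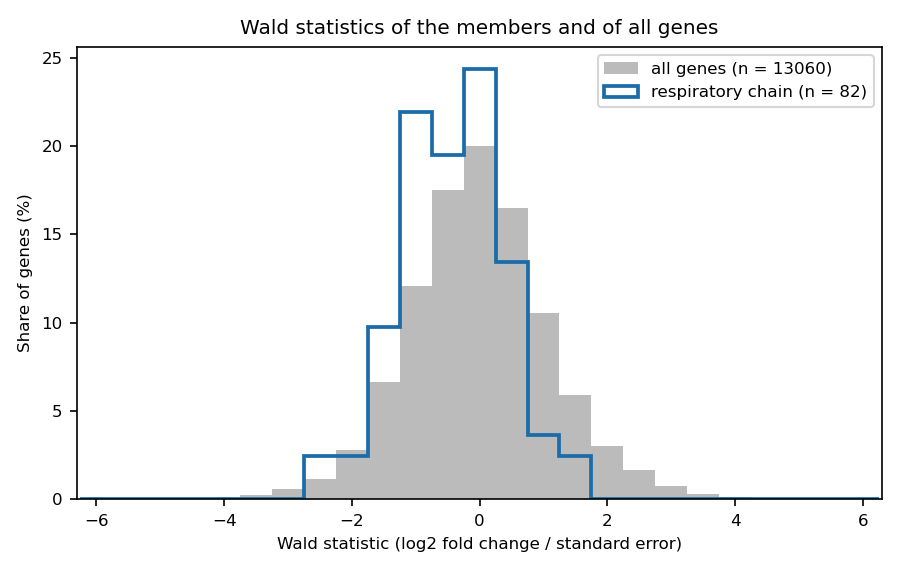
Wald statistics of the 82 members with an adjusted p-value (blue outline) and of all 13060 such genes (grey). The x axis is the statistic in units of standard errors and the y axis the share of genes in percent. No member lies in the far tails of the grey distribution. These hold few of all genes, so their absence among 82 is not a result about the members.

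The table was precise enough to bound most of these differences. For 50 of the 82 members (61%) the 95% interval lay wholly within a 1.2-fold change in either direction, against 47.1% of all genes. Within 1.5-fold lay the intervals of 80 members (97.6%), against 87.9% of all genes. The exceptions at 1.5-fold were Atp5g2, which codes for the c subunit of the ATP synthase ring, and Ndufa12, an accessory subunit of complex I. Their mean counts of 51.8 and 52.0 per the authors' deposited table were the lowest of the 82. All 26 members with a mean count of 1000 or more had an interval within 1.2-fold. The same share over all genes of such counts was not taken, so this is not read as particular to the members. The standard errors followed abundance: divided by the running median of genes of like mean count, they ranged from 0.889 to 1.12 with a median of 0.967. Of the 82, 25 were above 1. None of the members exceeded 2 on this ratio, where 242 of all 13060 genes did. At so low a share over all genes, 0 of 82 is near the background and is not a result about the members.

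**Figure D2:**
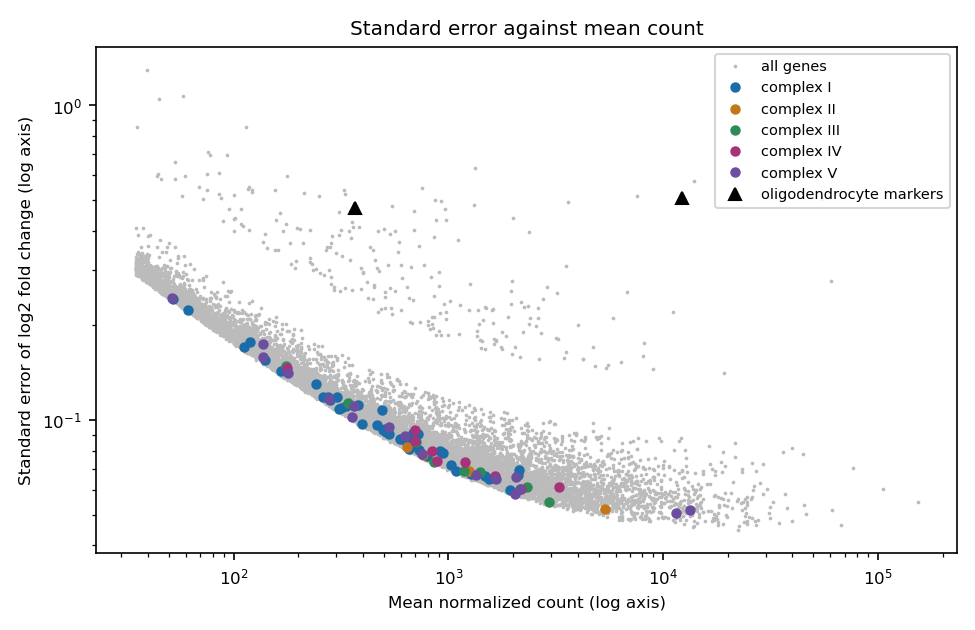
Standard error of the log2 fold change (y axis, log scale) against mean normalized count (x axis, log scale) for all genes with an adjusted p-value (grey), the members by complex (colours) and the oligodendrocyte markers Mog and Mbp (triangles). The members lie within the band, and the markers lie far above it.

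The 4 members under an unadjusted p-value of 0.05 belong to 4 different complexes. Atp5mpl (chr12:111961375-111966977, minus strand, GRCm38), a small membrane protein of the ATP synthase, had a mean count of 626 and a log2 fold change of -0.21 ± 0.089 (SE) per the authors' deposited table. Its unadjusted p-value was 0.0188. Cox8a (chr19:7215153-7217616, minus strand), a small subunit of complex IV, had a mean count of 3266 and a log2 fold change of -0.14 ± 0.061 (SE) per the authors' deposited table. Its adjusted p-value was 0.484 and its 95% interval ran from -0.26 to -0.021. Sdhc (chr1:171127165-171150603, minus strand), a membrane anchor of complex II, had a log2 fold change of -0.17 ± 0.077 (SE) and an adjusted p-value of 0.558 per the authors' deposited table. Ndufc1 (chr3:51404677-51408988, minus strand), an accessory subunit of complex I, had a log2 fold change of -0.29 ± 0.14 (SE) and an adjusted p-value of 0.623 per the authors' deposited table. Its interval, from -0.57 to -0.0088, came close to 0. None of these 4 genes shares exons with another annotated gene in GENCODE M21, as 31 of the 88 members do.

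**Figure D3:**
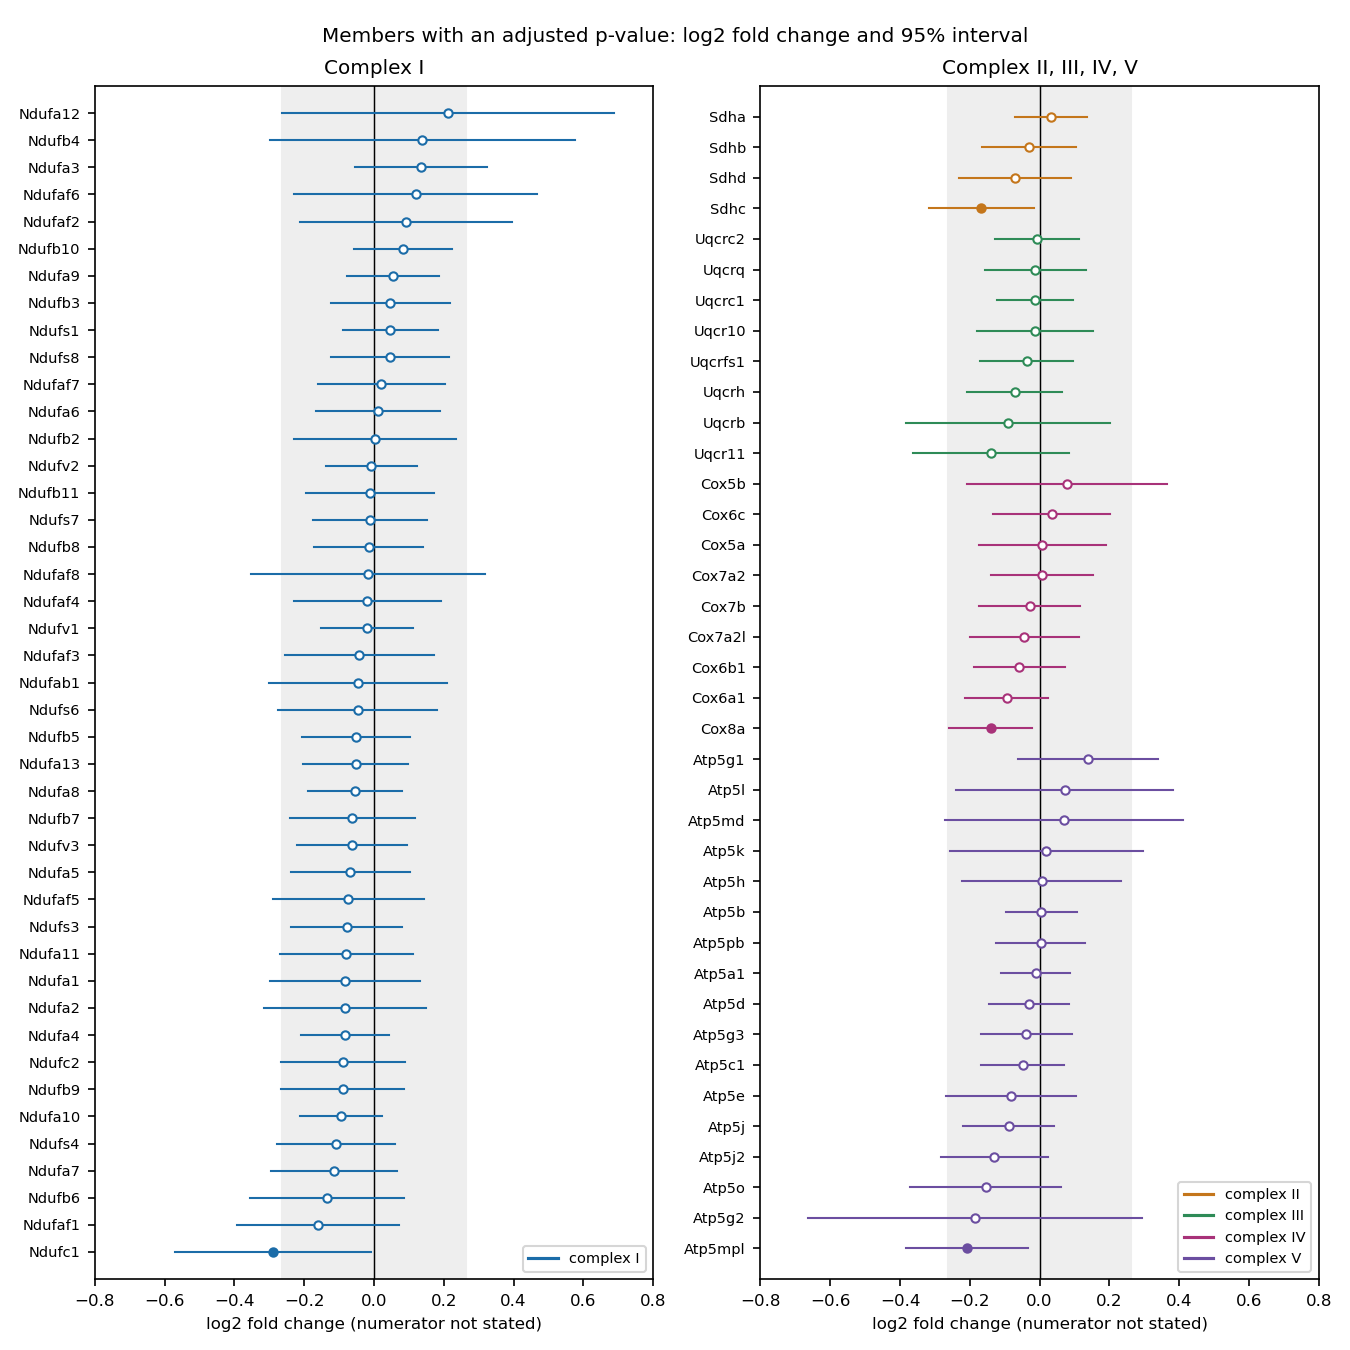
Log2 fold change of 81 of the 82 members with an adjusted p-value (points; filled where the unadjusted p-value is under 0.05) with 95% intervals (lines), by complex. The grey band is a 1.2-fold change in either direction; 49 of the intervals drawn lie within it and 4, all negative, do not reach 0.

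Complex I gave the most members. Of its 44 genes with an adjusted p-value, 31 were negative and 13 positive, with a median log2 fold change of -0.046. The 7 nuclear core subunits, which carry the flavin and the iron-sulfur clusters, had a median of -0.011 and all had intervals within 1.2-fold. Among them, Ndufv1, which binds NADH, had a log2 fold change of -0.02 ± 0.067 (SE) per the authors' deposited table. Ndufs1, the largest iron-sulfur subunit, had 0.046 ± 0.069 (SE) there. The core subunits Ndufs3, Ndufs7, Ndufs8 and Ndufv2 lay between -0.078 for Ndufs3 and 0.045 for Ndufs8 per the authors' deposited table. Accessory subunits surround the core. The 29 counted here include Ndufa4, which has since been counted with complex IV. They had a median of -0.056, with 21 negative. The lowest of them was Ndufc1 and the highest Ndufa12, at 0.21 with an interval from -0.26 to 0.69. The 8 assembly factors, which help to build complex I and leave it, had a median of -0.018. They ran from -0.16 for Ndufaf1 to 0.12 for Ndufaf6 per the authors' deposited table, and none was under an unadjusted p-value of 0.05. Core and accessory subunits were not tested against each other, since genes are not replicates.

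In complex II, the succinate dehydrogenase shared with the tricarboxylic acid cycle, the catalytic flavoprotein Sdha had a log2 fold change of 0.033 and the iron-sulfur subunit Sdhb of -0.03 per the authors' deposited table. Their standard errors were 0.052 and 0.069. The membrane anchor Sdhd lay at -0.07 with a standard error of 0.082 per the authors' deposited table, between Sdhb and Sdhc. The median of the 4 genes was -0.05.

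All 8 genes of complex III were negative, but by little. The log2 fold changes ran from -0.14 for Uqcr11 to -0.0069 for Uqcrc2 per the authors' deposited table, with a median of -0.025, and the lowest adjusted p-value was 0.93. The core proteins Uqcrc1 and Uqcrc2, large matrix-side subunits, had -0.013 and -0.0069 with standard errors of 0.055 and 0.062 per the authors' deposited table. The Rieske iron-sulfur protein Uqcrfs1 had -0.037 ± 0.068 (SE) there. The 3 intervals all included 0 and lay within 1.2-fold. The hinge protein Uqcrh, at -0.072, had the highest level of the complex per kilobase.

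In complex IV, 5 of 9 genes with an adjusted p-value were negative, with a median of -0.029. Cox5a and Cox5b, which are present in every cell type, had log2 fold changes of 0.0082 and 0.079 per the authors' deposited table, and Cox5b was the highest of the complex. Their standard errors were 0.093 and 0.15. Cox6a1, Cox6b1 and Cox6c, the widely expressed forms of the Cox6 subunits, had -0.094, -0.058 and 0.034 per the authors' deposited table, each with an interval that included 0. Of the Cox7 genes, Cox7a2 had 0.0068 and Cox7b -0.029 per the authors' deposited table. Cox7a2l, a paralog that joins complexes III and IV into larger assemblies, had -0.043 ± 0.08 (SE) there. Cox7a1, Cox6b2, Cox7b2 and Cox7c had mean counts of 12.3, 9.64, 7.1 and 14.6 per the authors' deposited table and no adjusted p-value. Cox7a1 is known from muscle and heart, and Cox6b2 and Cox7b2 from testis. Cox7c is a subunit of all tissues, and its count is taken up again with the levels. The interval of Cox6b2, from -0.41 to 1.97, shows how little such counts resolve.

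In complex V, 10 of 17 genes were negative and 7 positive, with a median of -0.03. The alpha and beta subunits of the F1 head, where ATP is made, had the smallest standard errors of all members. Atp5b, the beta subunit, had a mean count of 13361 and a log2 fold change of 0.0052 with a 95% interval from -0.096 to 0.11 per the authors' deposited table. Atp5a1, the alpha subunit, had a mean count of 11522 and a log2 fold change of -0.011 with an interval from -0.11 to 0.088 per the authors' deposited table. Atp5c1, Atp5d and Atp5e, the gamma, delta and epsilon subunits of the central stalk, had -0.049, -0.03 and -0.083 per the authors' deposited table. The c subunit of the rotor ring is made from 3 genes that code for the same mature protein. Atp5g3 had a log2 fold change of -0.038, Atp5g1 of 0.14 and Atp5g2 of -0.18 per the authors' deposited table, with standard errors of 0.066, 0.10 and 0.24. Atp5g1 was the highest gene of the complex and Atp5mpl the lowest. The 4 genes of the peripheral stalk, which holds the head still, ran from -0.15 for Atp5o to 0.0064 for Atp5h per the authors' deposited table. The inhibitor that stops the enzyme from running backwards, listed as Atpif1 and so outside the symbol rule, had 0.0017 ± 0.083 (SE) per the authors' deposited table.

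The members leaned to the negative side: 57 of the 82 members (69.5%) were negative, against 50.6% of all genes. The shift was small beside the error of a single gene, with a median of -0.037 (a change of -2.55%) and a median standard error of 0.086. Transcript length moved with the sign, and its part in the lean was not tested. Over all genes, the negative share was 59% of the 917 with transcripts under 1000 bases, 59.7% from 1000 to 2000 bases, 51.5% from 2000 to 4000 and 39.8% from 4000 upwards. The members are short, with a median length of 772.5 bases against 2838 over all genes. Among members under 1000 bases, 34 of 50 (68%) were negative, and from 1000 to 2000 bases 19 of 23 (82.6%). Of the 9 members from 2000 to 4000 bases, 4 (44.4%) were negative. A regression over all genes took length, GC content and mean count together, with squared terms and inverse-variance weights. It does not separate length from the other terms. After it, the median of the members was -0.0091 in place of -0.037, and that of complex V turned positive, at 0.019. The same median over all genes was not taken. The medians of complexes I, II, III and IV were then -0.014, -0.023, -0.014 and -0.023. Centring on genes of like mean count alone left the median of all members at -0.038. The lean was not seen in members of low count. Under a mean count of 300, 7 of 17 members (41.2%) were negative, with a median of 0.0064. From 300 to 1000 it was 30 of 39, and from 1000 upwards 20 of 26 (76.9% each). The part of mean count in the lean was not tested.

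**Figure D4:**
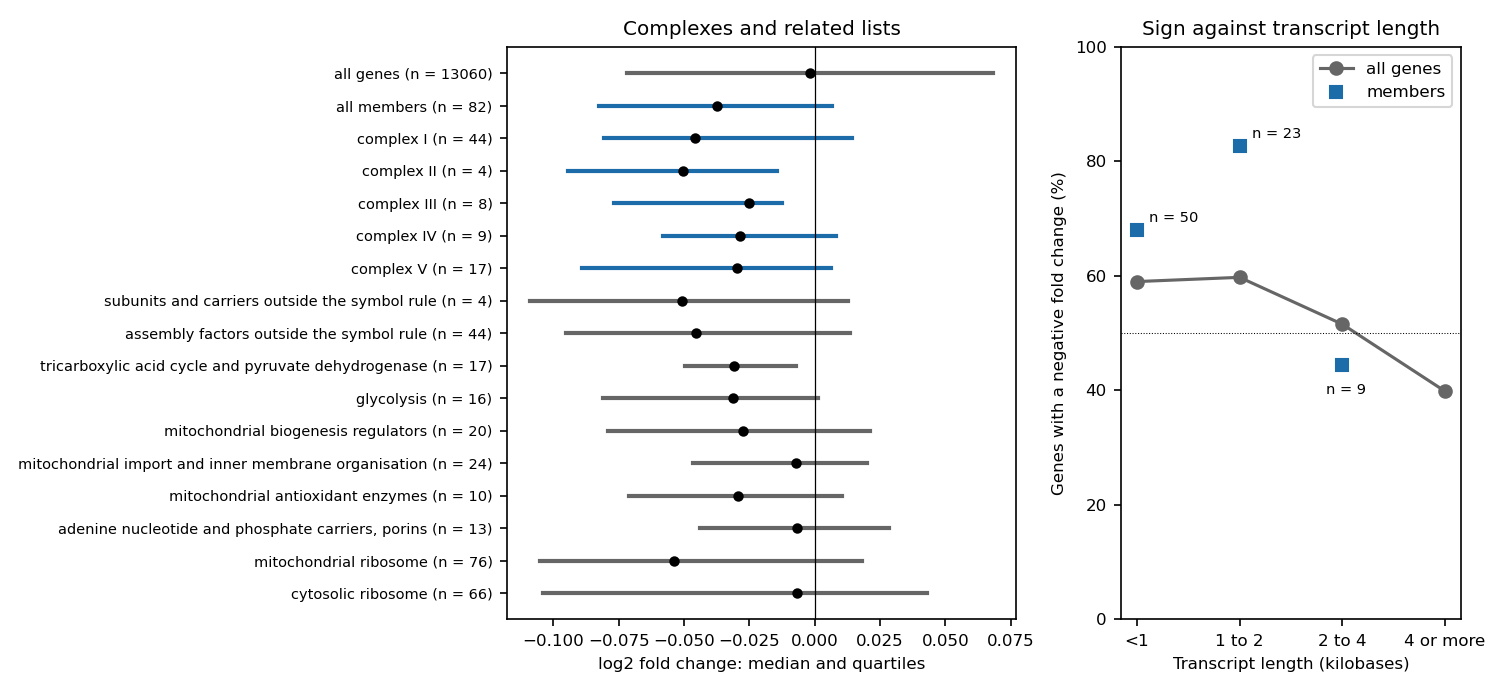
Left: median (point) and quartiles (line) of the log2 fold changes of all genes, the members by complex (blue) and related lists (grey), each over genes that have an adjusted p-value. Right: share of genes with a negative fold change (y axis, percent) by transcript length (x axis, kilobases) for all genes (grey) and for members (blue), with the negative share falling with length in all genes beyond 2 kilobases.

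Levels were compared as mean normalized count per kilobase of transcript, a mean over both groups. The median member, at 770 per kilobase, was above 88.9% of the 15912 protein-coding genes listed, whose median was 131.5, and 76 of the 88 members were above that median. Atp5b had the highest level of all members, 6973 per kilobase, and ranked 56 among the protein-coding genes. Cox8a followed with 5938 and Atp5a1 with 4479 per kilobase. The highest of complex I was Ndufa4, at 3360 per kilobase, a protein that has since been counted with complex IV. The highest of complex II was Sdha, at 1841, and of complex III Uqcrh, at 2498 per kilobase. By union exon length, an alternative chosen after the values had been seen, the medians were lower. The median member then had 387 per kilobase, above 87% of the protein-coding genes, whose median was 76.98, and 73 of the 88 members were above that median. The medians of complexes I to V were 679, 808, 1429, 1078 and 1043 per kilobase by transcript length and 306, 540, 810, 331 and 301 by union exon length. By that length Cox8a came first with 5276 followed by Atp5a1 with 3675 and Atp5b with 3153 per kilobase, while Ndufa8 led complex I and Uqcr10 complex III. The assembly factors were lower, with a median of 198 per kilobase and a range from 110 to 287, against a median of 885 for the subunits. By union exon length these medians were 138 and 464. Ndufa4l2, a paralog of Ndufa4 known as a gene induced by low oxygen, had 27.2 per kilobase and no adjusted p-value.

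Levels within a complex were far apart. Within complex V the level ran from 88.4 per kilobase for Atp5g2 to 6973 for Atp5b, and within complex III from 326 for Uqcrb to 2498 for Uqcrh. Cox7c, an integral subunit of complex IV, had 27.0 per kilobase, and Ndufs5, an accessory subunit of complex I, had 41. Several of these genes have near copies elsewhere in the genome. For each gene, the share of the 50-base words of its coding sequence that also occur in a transcript of a gene at another place was computed from GENCODE M21. This share was at least 50% for 15 members (17%), against 3.87% of the 15898 genes with a value. The 15 were Ndufa12, Ndufab1, Ndufb4, Ndufs5, Uqcrb, Cox5b, Cox6c, Cox7a2l, Cox7c, Atp5g1, Atp5g2, Atp5h, Atp5l, Atp5md and Atp5pb. Of these, 13 were below the median level of the subunits of their complex, as were 26 of the other 65 subunits. By either length the 4 lowest levels of complex V were those of Atp5g2, Atp5g1, Atp5l and Atp5md, at shares of 100%, 99.7%, 100% and 100%. Across the 80 subunits, Spearman's rho between level and share was -0.427, and -0.426 by union exon length, a description over genes that share the same libraries. The threshold of 50% was chosen after the values had been seen. How reads with several matches were counted is not given in the sources used here, and their part in the low counts was not tested.

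**Figure D5:**
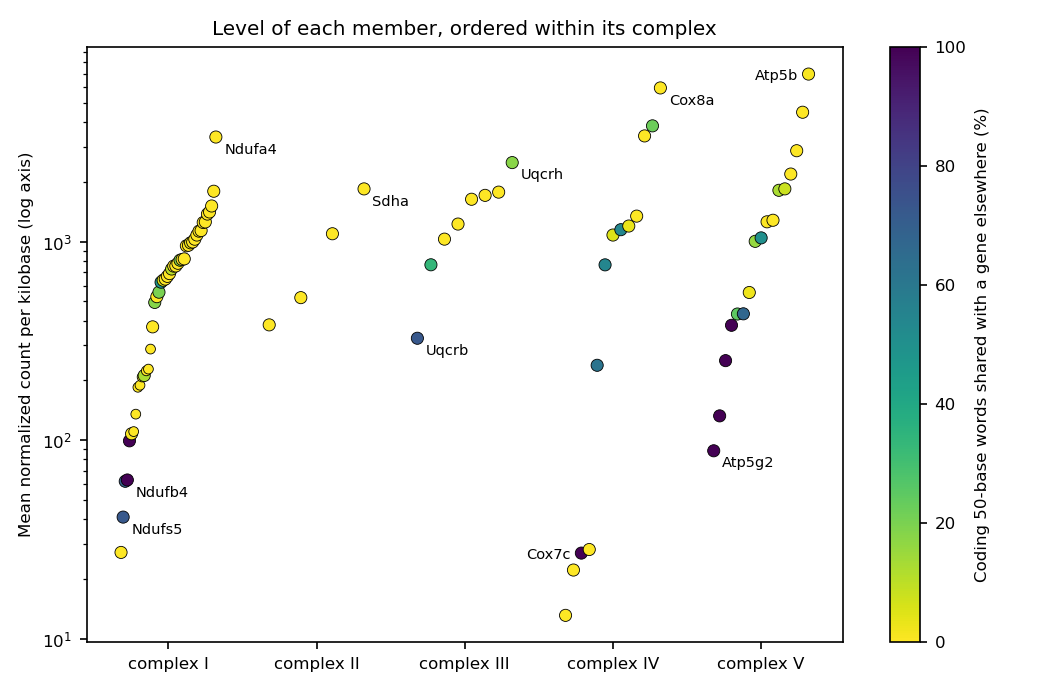
Mean normalized count per kilobase (y axis, log scale) of all 88 members, ordered within each complex (x axis), small points being assembly factors. The colour is the share of coding 50-base words found in a gene elsewhere. Dark points, with high shares, lie mostly at the low end of complexes I and V, with Atp5pb at the median level of complex V. Complex III holds 1 point at 50% or more, Uqcrb, its lowest, and Cox7c lies near the bottom of complex IV.

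The coding sequences of the lowest of these show the overlap. They are printed from the GENCODE M21 transcripts, with capitals for bases inside a 50-base word that a gene elsewhere also holds. All 189 bases of Cox7c are shared, the top match being the pseudogene Gm12338, and 293 of 318 bases of Ndufs5, with the processed pseudogene BC002163.
Cox7c: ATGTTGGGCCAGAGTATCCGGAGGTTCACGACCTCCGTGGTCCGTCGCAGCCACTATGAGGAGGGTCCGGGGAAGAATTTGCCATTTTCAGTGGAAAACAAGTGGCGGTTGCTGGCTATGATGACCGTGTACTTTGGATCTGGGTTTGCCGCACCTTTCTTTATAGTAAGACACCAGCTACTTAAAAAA
Ndufs5: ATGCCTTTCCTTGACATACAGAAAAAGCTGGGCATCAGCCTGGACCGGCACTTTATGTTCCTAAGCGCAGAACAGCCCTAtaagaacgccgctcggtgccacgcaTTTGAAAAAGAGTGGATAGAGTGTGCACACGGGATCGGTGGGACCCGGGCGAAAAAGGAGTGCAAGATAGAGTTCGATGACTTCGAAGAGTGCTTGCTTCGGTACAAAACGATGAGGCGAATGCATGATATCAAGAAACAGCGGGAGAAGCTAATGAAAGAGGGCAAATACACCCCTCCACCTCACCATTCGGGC
The first 300 bases of Ndufs5 are shown. Cox7c and Ndufs5 had mean counts of only 14.6 and 24.5 per the authors' deposited table, and neither gene had an adjusted p-value, so a difference between the groups was not resolved for either. The 13 genes of the 15 that had an adjusted p-value showed a median log2 fold change of 0.034, with 4 negative, and a median standard error of 0.15. The other 69 members had a median of -0.046, with 53 negative. The 13 also had lower mean counts, with a median of 177 against 709 for the 69. Shared words and mean count were not told apart in this contrast.

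The promoters of the members were searched as well, as a description. RefSeq promoters (GRCm38.p6), from 250 bases before to 50 after the start site, were matched by gene ID for 75 of the 88 members, and a gene was counted where any of its listed promoters held a word. Words bound by regulators known for respiratory chain genes were looked up on both strands: the NRF1 consensus, CCGGAAG for the Ets family with GABP, AAGATGGC for YY1 and AAGGTCA for ERR receptors. The NRF1 word was found in 19 member promoters (25.3%), against 9.36% of the 13640 genes of the table with a promoter. The Ets word was found in 19 (25.3%, against 16.2%), the YY1 word in 11 (14.7%, against 4.41%) and the ERR word in 8 (10.7%, against 4.41%). At least 1 of the 4 words was in 43 of 75 member promoters (57.3%) and in 29.9% of all. The YY1 word was in 8 of 40 promoters of complex I and in 3 of 15 of complex V, and in none of the 20 of complexes II, III and IV. The 18 genes with the NRF1 word and an adjusted p-value had a median log2 fold change of -0.047 and the 52 without it of -0.03, and for the Ets word the medians were -0.07 over 19 and -0.029 over 51. For the YY1 word they were -0.018 over 11 and -0.038 over 59, and for the ERR word 0.0038 over 7 and -0.042 over 63. These medians were not tested against each other, and the median standard error of a single member was 0.086.

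Printed here are the promoters of the members with an entry among the 4 lowest p-values, Cox8a and Ndufc1, and that of Uqcrc1 with its pair of NRF1 words. Capitals mark the words found, and all 3 run 5′ to 3′ on the strand of the gene (RefSeq), at chr19:7217567-7217866, chr3:51408906-51409205 and chr9:108936398-108936697.
Cox8a: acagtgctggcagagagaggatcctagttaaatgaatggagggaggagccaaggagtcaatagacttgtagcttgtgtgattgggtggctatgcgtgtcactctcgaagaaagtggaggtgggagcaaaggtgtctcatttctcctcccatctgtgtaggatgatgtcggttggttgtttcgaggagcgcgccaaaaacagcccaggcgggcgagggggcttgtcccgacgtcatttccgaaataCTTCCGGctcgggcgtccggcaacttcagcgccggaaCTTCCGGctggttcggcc
Ndufc1: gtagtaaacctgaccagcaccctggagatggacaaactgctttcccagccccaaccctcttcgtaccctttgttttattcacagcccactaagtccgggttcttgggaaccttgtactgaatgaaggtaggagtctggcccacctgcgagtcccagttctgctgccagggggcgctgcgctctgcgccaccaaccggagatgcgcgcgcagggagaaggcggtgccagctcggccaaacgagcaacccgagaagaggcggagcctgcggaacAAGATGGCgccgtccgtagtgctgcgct
Uqcrc1: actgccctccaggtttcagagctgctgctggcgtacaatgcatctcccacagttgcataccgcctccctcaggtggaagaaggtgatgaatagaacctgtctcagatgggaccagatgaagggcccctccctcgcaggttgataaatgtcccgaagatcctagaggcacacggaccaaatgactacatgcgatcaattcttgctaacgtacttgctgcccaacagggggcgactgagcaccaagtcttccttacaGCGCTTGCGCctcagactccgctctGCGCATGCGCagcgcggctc
Cox8a holds the Ets word at 2 places, both on the opposite strand, and Ndufc1 the YY1 word once. Such matches describe letters only and say nothing of binding. Atp5mpl and Sdhc had no entry.

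Genes of related mitochondrial processes were counted the same way. The assembly factors outside the symbol rule had 29 of 44 genes negative, a median log2 fold change of -0.046 and 0 under an unadjusted p-value of 0.05. They ran from -0.45 for Sdhaf1, an assembly factor of complex II, to 0.092 for Dmac2l per the authors' deposited table. Cyc1, which carries the heme of cytochrome c1 in complex III, was under that p-value, at -0.13 with an adjusted p-value of 0.616 per the authors' deposited table. Cox4i1, the common form of the Cox4 subunit, had -0.10 and the electron carrier Cycs 0.047 there. Of the 17 tricarboxylic acid cycle and pyruvate dehydrogenase genes, 13 were negative and 0 were under an unadjusted p-value of 0.05, from -0.20 for Suclg2 to 0.075 for Suclg1. The 76 mitochondrial ribosomal protein genes had a median of -0.054, with 54 negative. The 3 of them under an unadjusted p-value of 0.05, Mrps24, Mrpl16 and Mrps25, had -0.28, -0.20 and -0.19 per the authors' deposited table, and Mrps30 was the highest, at 0.14. Of the 24 import and inner membrane genes, 14 were negative, from -0.24 for Timm22, which was under an unadjusted p-value of 0.05, to 0.29 for Apool per the authors' deposited table.

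The regulators of mitochondrial biogenesis gave 14 of 20 negative and 0 under an unadjusted p-value of 0.05, from -0.16 for Ppara to 0.19 for Ppargc1b per the authors' deposited table. The coactivator Ppargc1a, known as PGC-1alpha, had -0.054 ± 0.095 (SE) there. Of the 10 antioxidant genes, 6 were negative, from -0.13 for Glrx5 to 0.083 for Sod2 per the authors' deposited table, and of the 13 carriers and porins 8 were negative, from -0.072 for Slc25a3 to 0.20 for Ucp2. Glycolysis gave 12 of 16 negative, from -0.20 for Gapdh to 0.027 for Pkm, with Aldoc, also an astrocyte marker, under an unadjusted p-value of 0.05 at -0.17 and an adjusted p-value of 0.16 per the authors' deposited table. The cytosolic ribosomal protein genes gave 35 of 66 negative and a median of -0.0068. They ran from -0.41 for Rps10 to 0.48 for Rps27a per the authors' deposited table. None of these lists held a gene under an adjusted p-value of 0.05.

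Markers of cell types and of striatal neurons were read beside the tissue label. None was chosen to mark medial prefrontal cortex, so the label was not verified by them. The neuronal markers Snap25 and Slc17a7 had mean counts of 39800 and 34713 per the authors' deposited table. Their log2 fold changes were -0.0075 and -0.032, and that of Rbfox3, another neuronal marker, was -0.17, all per the authors' deposited table. The oligodendrocyte markers Mog and Mbp were positive, at 1.09 and 1.15, with adjusted p-values of 0.483 and 0.497, per the authors' deposited table. The 3 striatal markers were positive as well, from 0.70 for Ppp1r1b to 1.63 for Drd2 per the authors' deposited table, and Drd1, at 0.76 with an adjusted p-value of 3.66e-05, passed the threshold. The parvalbumin interneuron marker Pvalb had -0.23 ± 0.30 (SE) per the authors' deposited table, and all 3 astrocyte, 3 microglial and 3 endothelial markers were negative. The part of these values in the lean of the members was not tested.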

How the data were processed

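Polyadenylated RNA from 7 libraries was sequenced, and 1 table of the authors' own comparison was used, with no value of a single library. The submitters' processing notes name Trimmomatic, Subread, DESeq2 and the build mm10, with no role or version. The deposited columns, per the file headers, are a mean normalized count (a signal averaged by the authors), a log2 fold change with its standard error, a Wald score and unadjusted and adjusted p-values. Calls rest on the authors' deposited adjusted p-values at 0.05, since the planned count test needs libraries. The members and lists were chosen with earlier results of these data known, and no test was made over the members as a list.

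Intervals at 95% were built from each log2 fold change and its standard error with normal quantiles. Each standard error was also divided by the running median of 201 genes of like mean count. Lengths, coordinates and transcripts came from GENCODE M21 (GRCm38), which held 17726 of the 17732 gene IDs and all 88 members. The transcript length is the median over a gene's basic transcripts. Coding words are all runs of 50 bases of the longest coding sequence, looked up on both strands in the transcripts of genes at other places. Promoters came from RefSeq (GRCm38.p6). Named genes were the members under an unadjusted p-value of 0.05, those with the highest and lowest fold change or level of each complex, those with no adjusted p-value, core subunits, isoform sets and regulators. Of the related lists, the genes under that p-value and the extremes were named. A few genes that enter the counts are not reported here singly. The read length, the strand setting and the handling of reads with several matches are not given in the sources used here. Scripts ran in Python 3.11.15 with numpy 2.4.6, pandas 2.3.3 and scipy 1.17.1 and were tested on simulated data.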

Additional observations from a re-analysis of the deposited data

How the results depend on the processing

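No paired analysis was possible because the table holds no values per library, and for that reason the planned fits without single libraries or with other count tools were not run. Whether a single library decides any value is therefore unknown, as is the depth of each library. The count of members under an adjusted p-value of 0.05 was 0 as deposited and 0 under all 5 alternatives tried. With a lowest deposited value of 0.461, a threshold of 0.1, Bonferroni adjustment and the null of at most 1.2-fold could give nothing but 0. Those counts are therefore no support. With no filter on the mean count, the recomputed adjusted p-value of Atp5mpl, the lowest member, was 0.528. With a mean count of at least 100 it was 0.413. Both are far from the threshold, so these counts add no support either. The count over all genes, 67 as deposited, was 101 at a threshold of 0.1, 21 after Bonferroni adjustment and 2 against a null of a change of at most 1.2-fold, settings that are looser or stricter by construction. The 4 members under an unadjusted p-value of 0.05 became 0 at 0.01. Under the 7 alternatives on that scale, the median log2 fold changes of the 5 complexes and of all members moved by less than the median standard error of their members. That error, 0.086 over all members, is larger than the size of the medians themselves, so moving by less is no sign of stability. Once length, GC and mean count had been regressed out, the median of all members went from -0.037 to -0.0091. That of complex V turned positive there, at 0.019. The other medians and the median Wald statistics all stayed negative. None of the 80 adjusted p-values recomputed for 20 named members crossed the threshold. Those from Bonferroni adjustment and the 1.2-fold null could not have done so, being stricter. The lowest of the others was the 0.413 of Atp5mpl, so they add no support either.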
